A study of Mus musculus with 3 samples.

Results

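Barcodes of adult mouse testis in which the protamine and transition protein genes Prm1, Prm2, Tnp1 and Tnp2 together gave from 5% to under 25% of the UMIs are described here. A UMI (unique molecular identifier) stands for 1 captured mRNA molecule. The range was proposed as that of early elongating spermatids. A first filter (3000 UMIs and 500 genes or more, mitochondrial genes at 10% of UMIs or less) passed 14608 of the 33038 deposited barcodes. Of these, 3840 were members: 1015 in wildtype replicate 1, 1148 in wildtype replicate 2 and 1677 in the knockout library. The members were chosen on measured values, so the levels of the 4 genes, and of genes that move with them, are a description of the choice and are given with no test.

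The study asked what Tex10, a nuclear protein described in ribosome biogenesis and in embryonic stem cells, does in spermatogenesis in the animal. Cells of C57BL/6N testes were read in droplets from the 3′ end of their transcripts. Wildtype replicate 1 and wildtype replicate 2 were wildtype adult mice, 1 mouse each, and the knockout library was a pool of cells from 2 adult mice with a conditional knockout of Tex10. Which Cre was used and which exons were removed are not in the labels, and wildtype mice carrying Cre alone were not analysed here. With 1 knockout library, no difference between genotypes has a replicate check, and genotype, mouse and library cannot be told apart. Values given in threes follow the order wildtype replicate 1, wildtype replicate 2, knockout library. Levels are UMIs per 1000000 UMIs outside the 4 genes (CPM), summed over the barcodes of a library, and intervals (95%, exact) cover counting error only.

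In spermiogenesis the haploid round spermatid builds its acrosome and flagellum, a skirt of microtubules called the manchette shapes the head, and transcription stops as the chromatin condenses. Histones are replaced first by the transition proteins (Tnp1, Tnp2) and then by the protamines (Prm1, Prm2). These 4 genes are transcribed in round spermatids and their mRNAs are stored under translational repression, so that mRNA is present for some time before and after the exchange takes place. The order in which stored mRNAs are lost is therefore as much a part of the elongating spermatid transcriptome as the order in which they appear.

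The promoters of the 4 genes are shown because their transcripts define the members, and that of Col16a1 because its transcript differed most among those lower in the knockout library. Each run holds 250 bases before to 50 bases after the start of the RefSeq transcript on GRCm38.p6, written 5′ to 3′ on the strand of the gene. A promoter was found for 5 of the 5 genes. Capitals mark the matches to TGANNTCA, a relaxed form of the cAMP response element TGACGTCA that CREM binds, and to TATAAA, both searched on both strands.
Prm1, chr16:10796774-10797073, minus strand: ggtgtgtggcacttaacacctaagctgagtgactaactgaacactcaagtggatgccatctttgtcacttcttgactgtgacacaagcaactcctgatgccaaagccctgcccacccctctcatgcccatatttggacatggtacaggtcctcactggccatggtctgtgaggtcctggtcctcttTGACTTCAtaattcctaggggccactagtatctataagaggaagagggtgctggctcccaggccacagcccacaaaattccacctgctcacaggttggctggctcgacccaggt
Prm2, chr16:10792056-10792355, minus strand: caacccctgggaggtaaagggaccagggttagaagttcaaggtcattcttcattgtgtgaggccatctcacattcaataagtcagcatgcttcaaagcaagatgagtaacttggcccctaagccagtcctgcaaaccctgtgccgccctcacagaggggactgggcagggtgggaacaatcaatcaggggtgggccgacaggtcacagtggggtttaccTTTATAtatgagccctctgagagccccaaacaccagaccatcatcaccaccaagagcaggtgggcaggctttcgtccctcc
Tnp1, chr1:73015850-73016149, minus strand: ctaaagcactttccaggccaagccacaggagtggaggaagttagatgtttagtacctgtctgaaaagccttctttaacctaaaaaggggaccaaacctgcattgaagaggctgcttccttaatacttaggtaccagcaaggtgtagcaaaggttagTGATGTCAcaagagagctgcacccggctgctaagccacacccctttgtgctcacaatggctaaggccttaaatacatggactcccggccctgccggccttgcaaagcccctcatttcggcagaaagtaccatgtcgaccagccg
Tnp2, chr16:10788606-10788905, minus strand: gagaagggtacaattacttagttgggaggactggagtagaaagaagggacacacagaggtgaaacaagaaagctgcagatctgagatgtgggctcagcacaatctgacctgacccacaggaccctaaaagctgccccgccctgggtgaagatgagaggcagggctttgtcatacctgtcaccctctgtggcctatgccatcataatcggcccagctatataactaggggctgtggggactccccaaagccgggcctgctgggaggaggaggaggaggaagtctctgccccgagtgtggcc
Col16a1, chr4:130047590-130047889, plus strand: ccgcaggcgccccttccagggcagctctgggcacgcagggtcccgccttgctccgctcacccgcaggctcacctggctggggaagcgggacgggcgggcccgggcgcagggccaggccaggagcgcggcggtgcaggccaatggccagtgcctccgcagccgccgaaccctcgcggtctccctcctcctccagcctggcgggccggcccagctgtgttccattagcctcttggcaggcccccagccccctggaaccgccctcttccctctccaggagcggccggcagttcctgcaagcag

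Prm1, Prm2 and Tnp2 lie in 1 cluster on chromosome 16, with Prm3 between Prm2 and Tnp2, and Tnp1 lies on chromosome 1. The Prm1 run held TGACTTCA, whose first base is 64 bases before the start, and the Tnp1 run held TGATGTCA, whose first base is 94 bases before it. The Prm2 run held TATAAA on the other strand, as TTTATA, 31 bases before the start. No match was found in the Tnp2 and Col16a1 runs, and the full element TGACGTCA was found in none of the 5. TGANNTCA, which includes every TGACGTCA, was present in 14.12% of all 32851 promoters of this length, TGACGTCA in 1.79% and TATAAA in 13.62%. A match is a run of letters and not a known site.

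The members were not 1 population. Plotted by the part of the 4 genes' UMIs that came from Tnp1 and Tnp2, they fell into 2 clouds with few barcodes in between. In the first cloud, called Tnp-rich here (a transition protein part of 25% or more), the median part was 36.6%, 37.6% and 37.0% in the 3 libraries. In the second, called Prm2-rich (a part under 10%), it was 1.65%, 1.69% and 1.87%. The 2 limits were chosen after seeing the data. Few barcodes lay near the upper one: 14, 8 and 35 had a part from 20% to 30%.

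The Tnp-rich group held 475, 440 and 935 barcodes, the Prm2-rich group 518, 685 and 679, and 22, 23 and 63 lay between the limits. Tnp-rich barcodes carried all 4 transcripts. In wildtype replicate 1, Prm1 gave 6.26% of their UMIs, Prm2 4.03%, Tnp1 2.24% and Tnp2 3.72%. Prm2-rich barcodes carried mostly Prm2, some Prm1 and little of the transition protein transcripts: 15.2% of their UMIs were Prm2, 4.13% Prm1, 0.111% Tnp1 and 0.245% Tnp2. The other 2 libraries had the same order within each group, with Prm2 at 14.7% and 14.1% in the Prm2-rich barcodes.

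**Figure D1:**
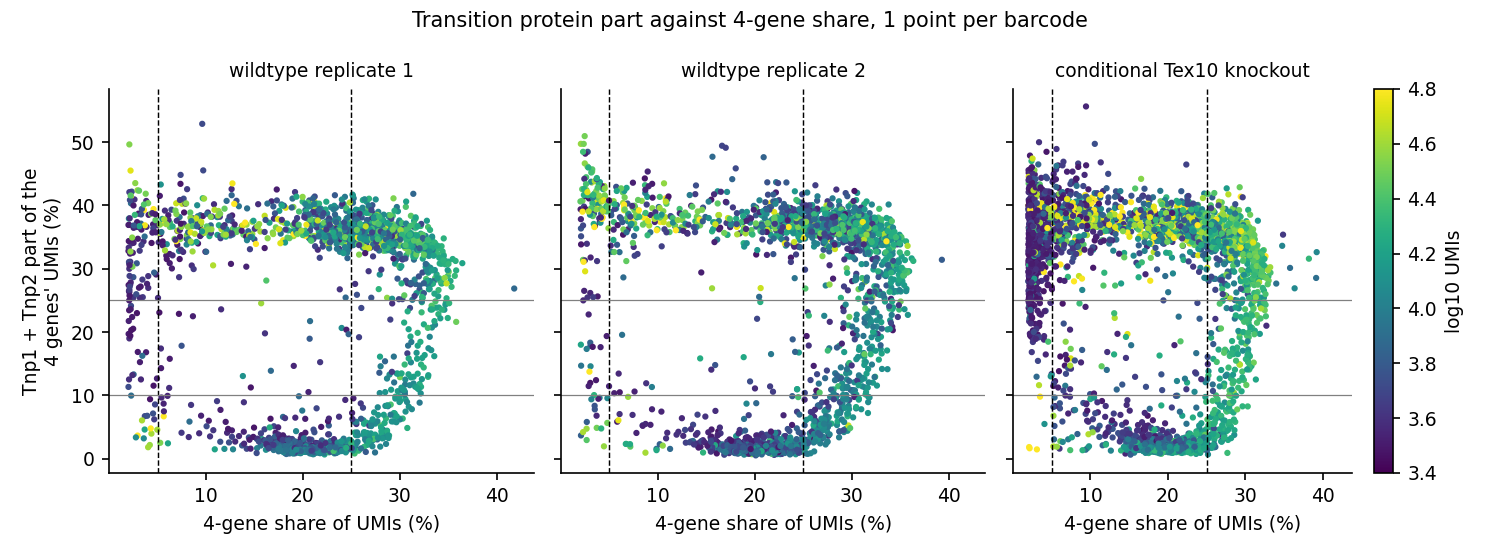
Part of the 4 genes' UMIs that came from Tnp1 and Tnp2 (y axis, percent) against the share of the 4 genes among all UMIs (x axis, percent), 1 point per kept barcode, 1 panel per library, coloured by log10 UMIs. Dashed lines mark the 5% and 25% limits of the members and grey lines the 25% and 10% limits of the groups, between which few members lie in any library.

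The label was checked against the 3 proposed markers that the rule did not use. Cstl1, a cystatin-like gene, stood at 763, 706 and 828 CPM in the Tnp-rich barcodes, and at 208, 205 and 195 CPM in the Prm2-rich barcodes. H2al3, a gene of the testis histone H2A variants, stood at 803, 746 and 766 CPM against 34.8, 42.3 and 35.2 CPM. Col16a1, which encodes the chain of type XVI collagen, stood at 921 and 847 CPM in the wildtype Tnp-rich barcodes against 43.8 and 39.1 CPM in the Prm2-rich ones. In the knockout library Col16a1 was at 14.2 CPM in Tnp-rich and 3.32 CPM in Prm2-rich barcodes. All 3 were thus several times higher in Tnp-rich barcodes of the wildtype libraries, and the values of the 2 groups did not overlap. Compared with the Prm2-rich members, the label fits the Tnp-rich members by Cstl1 and H2al3 in all 3 libraries. By Col16a1 it fits them in the wildtype libraries but not in the knockout library. The label goes against the Prm2-rich members, which are therefore named only by the gene that leads them. Barcodes at or above the upper limit of the range carried Cstl1 and H2al3 too. Thinned to 3000 UMIs, 84.12%, 83.55% and 85.24% of them held Cstl1, against 81.26%, 78.41% and 81.6% of Tnp-rich barcodes. For H2al3 the shares were 54%, 53.2% and 49.08% against 82.11%, 83.64% and 76.04%. The 12 round spermatid list genes summed to 3907, 3502 and 3244 CPM in Tnp-rich barcodes. In Prm2-rich barcodes they summed to 479, 530 and 438 CPM, so these markers too were higher in Tnp-rich barcodes. The check against Prm2-rich members therefore does not separate early elongating spermatids from later ones or from round spermatids.

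The 4-gene share did not order the 2 groups. From 5 to 10% of UMIs, 84.1%, 79.5% and 79.4% of the barcodes were Tnp-rich. From 15 to 20%, 23.0%, 18.4% and 37.5% were, and from 20 to 25% the figures were 45.6%, 38.6% and 55.6%. Prm2-rich barcodes thus crowded the upper part of the range. At the lower limit, 27, 22 and 73 barcodes lay just inside (5 to 6%), with 70.4%, 81.8% and 80.8% Tnp-rich, and 28, 36 and 96 just outside (4 to 5%), with 60.7%, 80.6% and 88.5%. At the upper limit, 90, 98 and 124 lay just inside (24 to 25%) and 86, 97 and 128 just outside (25 to 26%), and 65.3% to 73.3% of these were Tnp-rich. The limits of 5% and 25% therefore passed through a continuous range of barcodes.

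Prm2-rich barcodes held fewer UMIs and fewer genes. Their median total was 7322, 6270 and 10075 UMIs, against 10531, 11858 and 12436 in Tnp-rich barcodes. Thinned to 3000 UMIs each, Prm2-rich barcodes still held a median of 863, 888 and 886 genes against 1278, 1286 and 1322. X-linked genes gave 1.53%, 1.504% and 1.57% of UMIs outside the 4 genes in Prm2-rich barcodes and 2.33%, 2.18% and 2.19% in Tnp-rich barcodes. Each of these differences had the same direction in all 3 libraries.

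Of 4581 genes at 20 CPM or more in 1 group in all libraries, 44.7% were at least 2-fold higher in Tnp-rich than in Prm2-rich barcodes in each of the 3 libraries. In the other direction 7.81% were, so most genes that differed were lower in Prm2-rich barcodes. As both groups are cut from counts of the same barcodes, the numbers describe the groups and carry no test. The genes with the largest differences towards Tnp-rich included Cntn1, a neural cell adhesion gene, at 265, 237 and 226 CPM against 6.60, 6.15 and 6.81 CPM. Cdyl, whose protein reads and modifies histones during the exchange, stood at 668, 642 and 660 CPM against 24.9, 27.1 and 30.6 CPM. Ccin, which encodes calicin of the sperm head cytoskeleton, stood at 441, 395 and 371 CPM against 15, 18.0 and 16.9 CPM. For each of these 3 genes, the lowest Tnp-rich value was more than 10 times the highest Prm2-rich value.

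Towards Prm2-rich the leading genes were few and abundant. Tssk6, a testis serine kinase needed for chromatin condensation, stood at 1666, 1437 and 1726 CPM in Tnp-rich barcodes and at 8123, 6784 and 7512 CPM in Prm2-rich barcodes. Tppp2, a tubulin-associated protein gene of sperm, stood at 619, 640 and 706 CPM against 3195, 3224 and 3081 CPM. Spem2, a gene of the family that acts in cytoplasm removal, stood at 331, 300.3 and 308 CPM against 1407, 1329 and 1352 CPM. Bri3bp, Lelp1, Tbc1d20 and Nbr1, an autophagy receptor gene, went the same way. Apoe and C1qb, which are known from macrophages and other somatic cells, were also among the 12 leading genes. C1qb stood at 124, 106 and 116 CPM in Prm2-rich barcodes, where the macrophage genes C1qa, C1qc and Lyz2 stood at 0 to 15.3 CPM. Apoe stood at 65.5, 61.8 and 96.6 CPM in Tnp-rich barcodes and 409, 315 and 408 CPM in Prm2-rich barcodes, where 434, 549 and 617 barcodes held at least 1 UMI of it. The Apoe counts were thus spread over most Prm2-rich barcodes rather than held by a few.

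Lists of genes by their place in the sperm cell split in different ways between the groups, and each count is read beside the 44.7% and 7.81% of all genes. Of 20 acrosome genes compared, 16 were at least 2-fold higher in Tnp-rich barcodes in all libraries, among them Acrv1 (278, 265 and 207 CPM against 27.0, 42.6 and 31.1 CPM), Spaca1 and Izumo1, the sperm ligand for egg fusion. Crisp2 and Ccdc136 went the other way, with Crisp2 at 3041, 3035 and 2900 CPM in Tnp-rich barcodes and 7196, 7111 and 6399 CPM in Prm2-rich barcodes. Of 13 perinuclear theca genes, which form the shell between acrosome and nucleus, 9 were higher in Tnp-rich barcodes and 0 in Prm2-rich ones. The manchette and head shaping list had 9 of 19 higher in Tnp-rich barcodes, such as Meig1 (9356, 8980 and 7800 CPM against 1598, 1653 and 1432 CPM) and Spag4, and 2 higher in Prm2-rich barcodes, Spem1 and Spem2. The acrosome and theca counts thus lay above the share of all genes on the Tnp-rich side, and the manchette count near it.

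Of 15 histone to protamine exchange genes compared, 7 were higher in Tnp-rich barcodes: H2al3, Hils1, Chd5, Phf7, Camk4, Cdyl and Hmgb4. Hils1, a linker histone of spermatids, stood at 3020, 2904 and 2902 CPM against 297, 289 and 276 CPM, and Hmgb4 at 3419, 3806 and 3499 CPM against 239, 291 and 279 CPM. The exception was Tssk6, the gene on this list that was higher in Prm2-rich barcodes. Of 5 core and linker histone genes compared, H3f3a and H3f3b, which encode histone H3.3, were higher in Tnp-rich barcodes and 0 were higher in Prm2-rich barcodes. The share of exchange genes on the Tnp-rich side was thus near that of all genes.

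Tail genes were divided. Of 22 genes of the fibrous sheath, outer dense fibre and mitochondrial sheath, 8 were higher in Tnp-rich barcodes (Akap3, Odf3, Ropn1, Ropn1l, Tekt2, Tekt4, Tekt5 and Dnali1) and 7 in Prm2-rich barcodes (Akap4, Odf1, Odf2, Fscb, Tcp11, Smcp and Spata18). Akap3 and Akap4, both anchors of protein kinase A in the fibrous sheath, lay on opposite sides. Akap3 stood at 458, 466 and 491 CPM in Tnp-rich barcodes against 27.0, 34.4 and 35.5 CPM. Akap4 stood at 923, 853 and 1137 CPM against 2187, 2067 and 2550 CPM. Smcp, which encodes a cysteine-rich protein of the sperm mitochondrial sheath, reached 8334, 10388 and 9269 CPM in Prm2-rich barcodes against 2135, 2701 and 2786 CPM.

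Energy genes were divided in the same manner. Of 16 compared, Ldhc, Pdha2, Slc16a7, Gk2 and Gykl1 were higher in Tnp-rich barcodes and the glycolytic genes Gapdhs, Pgk2, Hk1 and Tpi1 in Prm2-rich barcodes. Ldhc, the sperm lactate dehydrogenase, stood at 7525, 7070 and 6676 CPM against 1894, 1980 and 1935 CPM, and Gapdhs, the sperm form of a glycolytic dehydrogenase, at 1071, 1133 and 1200.2 CPM against 3945, 3941 and 4009 CPM. Of 11 testis kinase and phosphatase genes, 5 were higher in Tnp-rich and 2, Tssk3 and Tssk6, in Prm2-rich barcodes, while Tssk2 was within 2-fold. Of 15 ubiquitin system genes the counts were 8 and 2, and of 19 transcription and mRNA storage regulators 9 and 1. The regulators higher in Tnp-rich barcodes included Ybx1 and Ybx3, which bind stored spermatid mRNAs, with Ybx1 at 2001, 1985 and 2376 CPM against 325, 320 and 407 CPM. The regulator higher in Prm2-rich barcodes was Fxr1. Of 3 Wnt pathway genes compared, Gsk3b, Csnk1a1 and Tcf7l2, all were higher in Tnp-rich barcodes, and of the Tex10 complex 1 gene was compared and was within 2-fold.

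Within the Tnp-rich group, levels changed in order along the 4-gene share. From the bin of 5 to 10% to that of 20 to 25%, 259 of 3509 genes (7.38%) were at least 2-fold higher in all 3 libraries. In the other direction 1692 of 4847 (34.9%) were at least 2-fold lower. The 2 directions were counted over different sets of genes, so their shares have no common base. Cby3 stood at 44.0, 41.7 and 73.6 CPM in the lowest bin and at 401, 375 and 505 CPM in the highest. Tmod4, a tropomodulin gene, stood at 4.09, 5.08 and 10.0 CPM in the lowest bin and 52.0, 63.2 and 73.3 CPM in the highest. Both were higher at each of the 3 steps between bins in every library. Hacd2, a gene of fatty acid elongation, went the other way, from 371, 356 and 225 CPM to 19.9, 14.0 and 10.2 CPM. Vgll3, a transcription cofactor gene, stood at 96.6, 78.8 and 69.3 CPM and then at 4.30, 2.80 and 2.43 CPM. From 10 to 15%, Hacd2 was at 224, 245 and 154 CPM and Vgll3 still at 81.7, 70.3 and 67.3 CPM, so most of the decrease of both lay above that bin. These genes were selected along the same axis, so the order is a description.

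A small set of genes was highest within the range itself. Genes were compared if they reached 20 CPM in members of each library, so their level in members alone admitted them. Of these 4157 genes, 34 (0.818%) were at least 2-fold higher in members than in both neighbouring ranges in each library. The ranges were round spermatid-like barcodes of 1 to 5% and barcodes of 25% or more. The count describes the choice and carries no test. The leading gene was Acta2, smooth muscle actin and a marker of the peritubular myoid cells around the tubules. The 5 barcodes with most Acta2 held 98.0%, 67.4% and 78.6% of its UMIs in members, and Acta2 dropped out of the set when barcodes carrying markers of other cell types were left out (35 genes, 32 of them among the 34). The next were Esyt3, Ptms, Dcdc2c, 4930500M09Rik, Faiml, BC031181, Gm30302, Ung, Zc2hc1b, Mphosph6 and Tbx5. Without wildtype replicate 1 the set held 55 genes. The round spermatid-like barcodes of 1 to 5% had a median of 4565, 20398 and 3935 UMIs, so that their depth differed between libraries.

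Faiml, a gene related to the apoptosis inhibitor Faim, was at 36.5, 43.0 and 44.9 CPM in those round spermatid-like barcodes. It reached 441, 291 and 354 CPM in Tnp-rich barcodes of 15 to 20%, and stood at 20.6, 21.2 and 11.3 CPM in barcodes of 25% or more with a transition protein part of 25% or more. Dcdc2c, a doublecortin domain gene, followed the same course, with 198, 198 and 181 CPM from 15 to 20%. Ung, the uracil DNA glycosylase of base excision repair, was at 70.6, 58.2 and 62.8 CPM there and at 7.35, 8.89 and 8.84 CPM in barcodes of 25% or more. From 20 to 25% the knockout library stood below both wildtype libraries for these genes: Faiml was at 289 and 248 CPM in wildtype and 95.2 CPM in the knockout library, and Dcdc2c at 107 and 89.7 CPM and 31.04 CPM. In the bin of 10 to 15% this was not so, with Dcdc2c at 129 and 111 CPM in wildtype and 149 CPM in the knockout library.

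**Figure D2:**
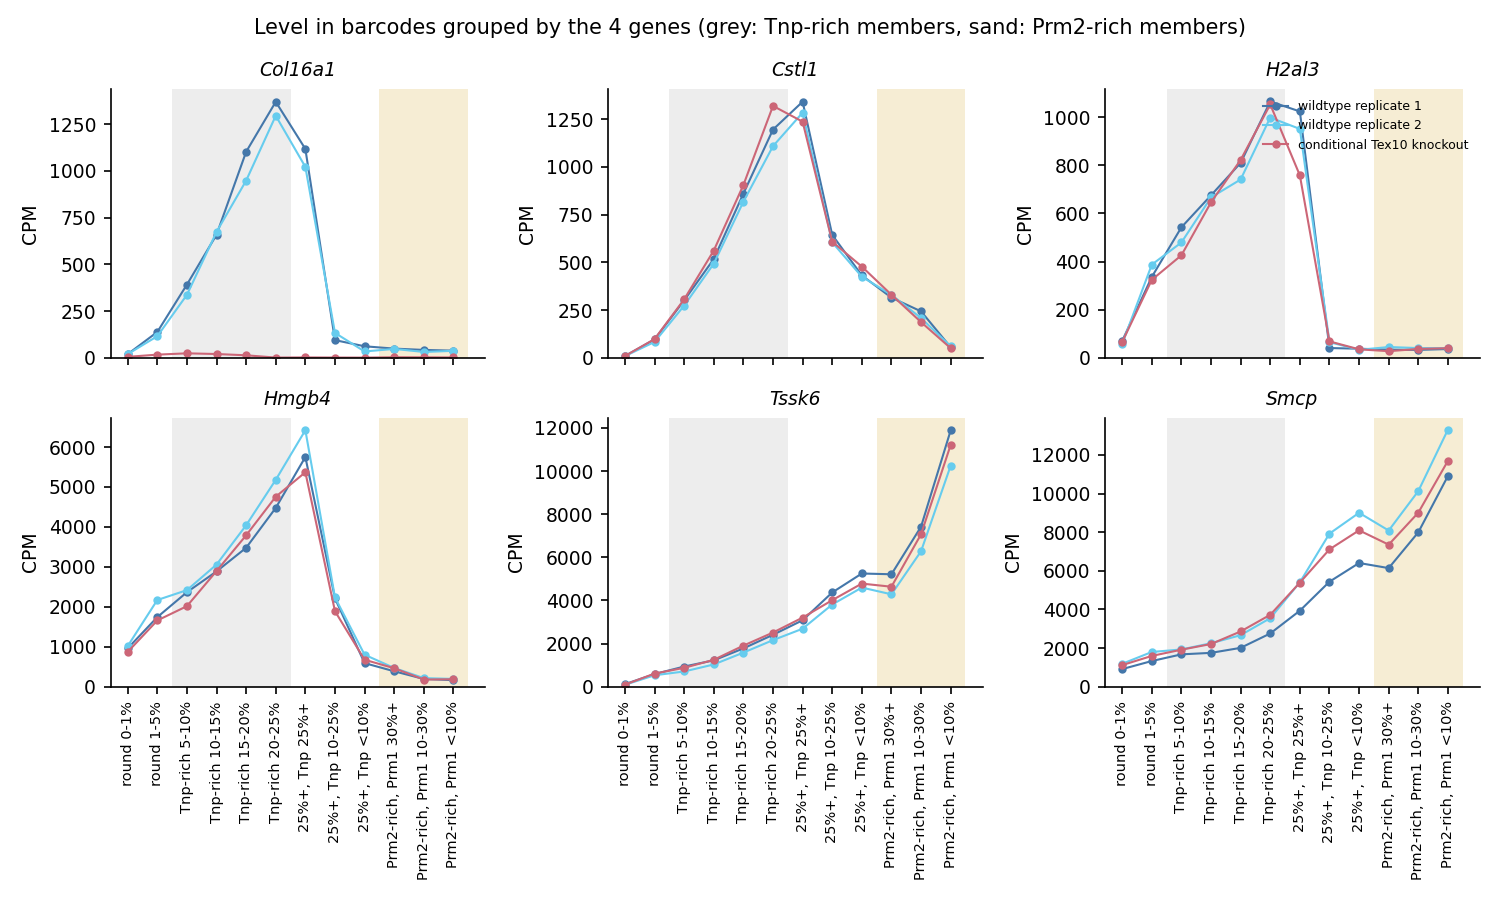
Level (CPM, y axis, from 0) of single genes in barcodes grouped by the 4 genes (x axis: round spermatid-like barcodes, Tnp-rich members in 4 bins on grey, barcodes of 25% or more, and Prm2-rich members in 3 tiers of Prm1 on sand), 1 line per library. Genes that peak in the grey range, genes that are highest on sand and Col16a1, which is near 0 in the knockout library, can be compared between libraries.

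Within the Prm2-rich group the remaining axis was Prm1. The median part of protamine UMIs that came from Prm1 was 13.1%, 14.98% and 12.54% per barcode, with 39.4%, 37.2% and 40.4% of barcodes under 10% and 22.4%, 27.6% and 27.1% at 30% or more. Of 3053 genes, 477 (15.6%) were at least 2-fold lower in barcodes under 10% Prm1 than in those of 30% or more. Of 2758 genes, 25 (0.907%) were at least 2-fold higher. These shares too were taken over different sets of genes and have no common base. Dnajb3, a heat shock protein cochaperone gene, stood at 5415, 5424 and 5799.8 CPM in barcodes of 30% or more and at 271, 284 and 349 CPM in those under 10%. Paqr5, a progestin receptor family gene, stood at 1639, 1829 and 1844 CPM and then at 91.1, 102 and 88.1 CPM. Both transcripts were thus lower together with Prm1.

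Retreg1, an endoplasmic reticulum autophagy receptor gene, differed later: it was at 751, 712 and 792 CPM at 30% or more, at 595, 557 and 460.2 CPM from 10 to 30%, and at 25.03, 16.9 and 34.7 CPM under 10%. Of the 12 genes that led the Prm2-rich group as a whole, 7 were among the 25 higher genes: Bri3bp, Tppp2, Tssk6, Tbc1d20, Spem2, Lelp1 and Nbr1. Apoe and C1qb were not among them, with C1qb at 92.7, 77.8 and 96.5 CPM at 30% or more and 168, 134 and 137 CPM under 10%. Tssk6 went from 5213, 4283 and 4635 CPM to 11885, 10249 and 11213 CPM, and Spem2 from 690.4, 671 and 653 CPM to 2313, 2297 and 2337 CPM. Since CPM is a share, a transcript can be higher because others are lower, and the 2 cannot be told apart. The barcodes under 10% Prm1 held a median of 5608, 4982 and 7545 UMIs against 10490, 8209 and 14662 in those of 30% or more.

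Among barcodes of 25% or more, those with a transition protein part under 10% numbered 116, 132 and 88, and 94.8%, 94.7% and 93.2% of them had a Prm1 part of 30% or more. Their Dnajb3 level, 6456, 6293 and 6511 CPM, lay next to that of Prm2-rich members with as much Prm1. A range below 25% therefore took in the barcodes with the least Prm1.

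The targeted gene was low in the members of every library. Tex10 stood at 10.3 CPM (8.43 to 12.4) in wildtype replicate 1, 11.8 CPM (9.88 to 14.1) in wildtype replicate 2 and 9.79 CPM (8.59 to 11.1) in the knockout library. It had a UMI in 7.39%, 8.71% and 10.4% of members, and in 75.04%, 65.1% and 73.0% of barcodes led by spermatogonium or early spermatocyte markers, whose median depth was 7937, 7766 and 9867 UMIs. The intervals of the members, which cover counting error only, overlapped, and a difference between genotypes was not tested. The reads come from the 3′ end and the deleted part is not given, so the level does not check the deletion.

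Members made up 25.7% (24.3 to 27.1) and 23.6% (22.4 to 24.8) of kept wildtype barcodes, 24.6% ± 1.51 (SD, n = 2), and 29.0% (27.8 to 30.2) in the knockout library. The direction depended on the depth limit: with a minimum of 1000 UMIs the shares were 24.99%, 21.5% and 20.8%. Within the members, Tnp-rich barcodes made up 46.8% (43.7 to 49.9) and 38.3% (35.5 to 41.2) in wildtype and 55.8% (53.3 to 58.2) in the knockout library. Per Prm2-rich barcode there were 0.917 and 0.642 Tnp-rich barcodes in wildtype and 1.38 in the knockout library. Of barcodes at 5% or more, 57.9% and 53.8% were members in wildtype and 67.3% in the knockout library. The knockout library lay outside the wildtype pair in each of these shares at 3000 UMIs. Members of the knockout library also held more UMIs, with a median of 10565 against 8152 and 7014, and the part of depth in these shares was not tested.

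**Figure D3:**
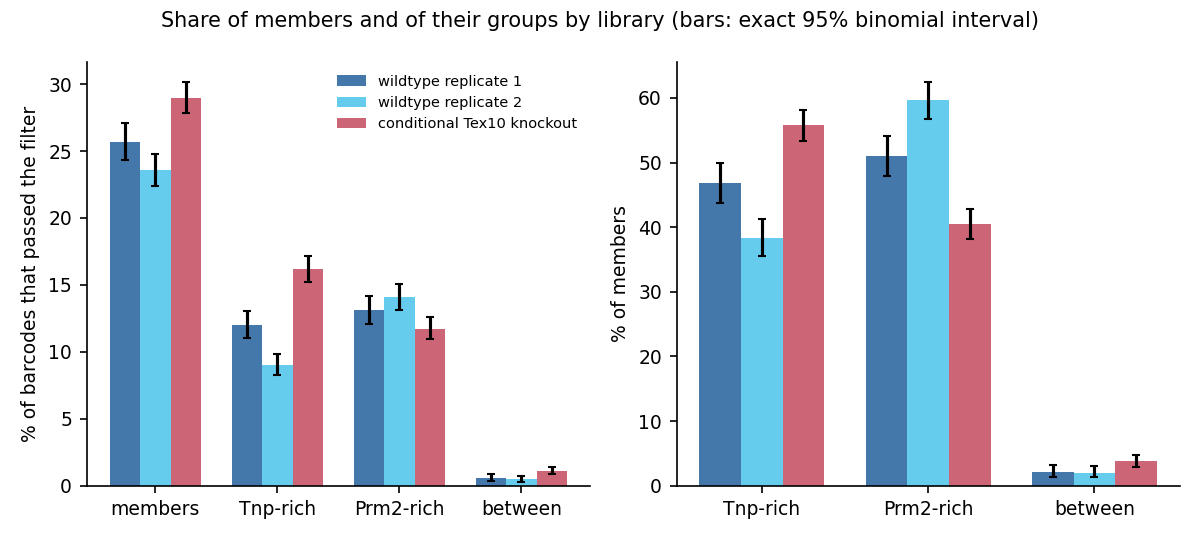
Share of kept barcodes that were members, Tnp-rich or Prm2-rich, and share of members in each group (y axes, percent, from 0), 1 bar per library with its exact 95% binomial interval, which covers counting error only. The knockout library has the highest Tnp-rich share, 55.8% of members, and the lowest Prm2-rich share, 40.5%.

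The balance of the protamines differed in the knockout library within Tnp-rich barcodes. Prm1 and Prm2 are among the 4 genes that set the members and the Tnp-rich limit, so this describes the chosen barcodes and carries no test. The median Prm1 part of protamine UMIs was 61.5% and 61.3% in wildtype, 61.4% ± 0.131 (SD, n = 2), and 57.5% in the knockout library. It was lower in the knockout library in each bin of the 4-gene share: 54.8% against 56.5% and 57.1% from 5 to 10%, and 58.9% against 63.4% and 62.9% from 20 to 25%. Barcodes of 25% or more gave 61.5%, 62.3% and 57.4%. In Prm2-rich barcodes the medians were 13.1% and 14.98% in wildtype and 12.54% in the knockout library, beside a spread of 1.33 points (SD, n = 2) in the wildtype pair. In spermatogonium and early spermatocyte list barcodes, which should lack both genes, the few protamine UMIs gave medians of 58.7%, 60% and 58.3%. At the lower limit of the range the libraries were not ordered in this way. Just inside it (5 to 6%) the Tnp-rich medians were 54.6%, 57.1% and 54.9%, over 19, 18 and 59 barcodes, and just outside (4 to 5%) they were 56.76%, 56.77% and 58.8%. The lower part in the 4 bins rests on 1 library.

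**Figure D4:**
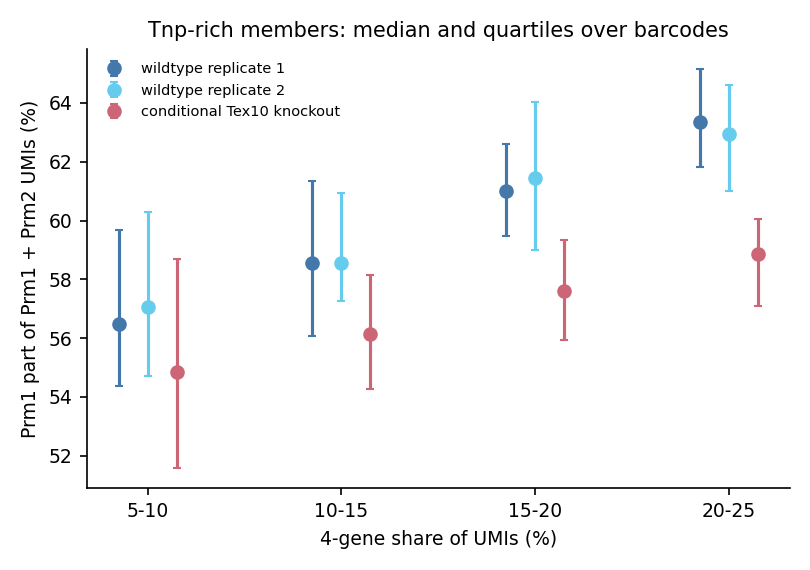
Prm1 part of Prm1 and Prm2 UMIs (y axis, percent) in Tnp-rich members by 4-gene share of UMIs (x axis, 4 bins), with the median over barcodes as a point and the quartiles as bars, 1 colour per library. The knockout points lie below both wildtype points in all 4 bins, by more in the highest bin.

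Single genes were compared by a fixed size rule: at least 2-fold against each wildtype library in 1 direction (1 CPM added), the smaller log2 ratio no less than 2 times that of the wildtype pair, and at least 20 CPM in 1 library. In members, 40 genes were higher in the knockout library, 0.826% of the 4843 compared, and 22 were lower, 0.454%. With TMM scaling, which moved the median log2 ratio of all genes by -0.10, the split was 32 and 31. Without the 20, 24 and 38 members that carried markers of other cell types it was 36 and 22, of which 34 and 21 were among the genes called with all members. With wildtype replicate 1 left out 63 genes were higher, and with wildtype replicate 2 left out 91.

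Col16a1 (chr4:130047840-130099283, plus strand) had the largest difference of the lower genes. It stood at 640.4 and 539 CPM in members of both wildtype replicates and at 11.2 CPM in the knockout library. In Tnp-rich barcodes the knockout level was 14.2 CPM against 921 and 847 CPM, which was 62.5-fold lower. The wildtype level was higher in each successive bin, from 392 and 338 CPM at 5 to 10% to 1370 and 1295 CPM at 20 to 25%. In the knockout library it was 24.8 CPM in the first bin and 2.08 CPM in the last, so the libraries were furthest apart where the wildtype level was highest. A UMI of Col16a1 was found in 96.4% and 95.9% of wildtype and 16.8% of knockout Tnp-rich barcodes. Thinned to 3000 UMIs the shares were 84.8%, 84.8% and 4.39%, beside 8.89%, 7.34% and 2.21% in the spermatogonium and early spermatocyte list barcodes. Within the knockout library the thinned share was 0.736% (0.240 to 1.71) in Prm2-rich barcodes and 0.861% (0.347 to 1.77) in barcodes of 25% or more. The share in Tnp-rich barcodes (3.17 to 5.90) lay above both without overlap of the intervals, and its interval overlapped that of the early germ cells (1.24 to 3.62).

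The other lower genes with the largest differences were of mixed kinds. Kpna1 (chr16:35978750-36037131, plus strand), a nuclear import receptor gene, stood at 44.2 and 41.8 CPM in wildtype and 3.02 CPM in the knockout library. Rpl29 (chr9:106429454-106431568, plus strand), a protein of the large ribosomal subunit, stood at 773 and 866 CPM and at 87.0 CPM. It was the 1 ribosomal protein gene called of 79 compared, and the median log2 ratio of these was -0.06. Of the 31-base words in the last 500 bases of Rpl29 transcripts, 57.7% also occur in other annotated genes, so its level depends on how shared reads were counted. The same holds for Gm15097 (86.8% shared), Gm8797 (93.0% shared, with Ubb among others) and Gm10076 (84.2% shared, with Rpl41 among others). Copb1, a subunit gene of the COPI vesicle coat, stood at 30.5 and 29.8 CPM against 8.94 CPM. The lower level was that of Tnp-rich barcodes (41.5, 43.7 and 7.94 CPM), while Prm2-rich barcodes had 7.501, 7.63 and 10.3 CPM. The set was completed by 1700080G11Rik, 4930547E14Rik and Gm12925, each 3.24-fold to 3.81-fold lower.

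Transcripts listed at 0 in wildtype members led the higher genes. Gm12970 (chr4:130811617-130812326, minus strand, annotated as antisense) had 0 UMIs in members of both wildtype libraries and 116 CPM in the knockout library, at least 410-fold higher against a floor of 3 counts per library. It had a UMI in 65.5% of knockout members, and in 4.42% of the library's spermatogonium and early spermatocyte list barcodes. Its level was higher in each successive Tnp-rich bin, from 24.5 CPM at 5 to 10% to 131 CPM at 20 to 25%, and 207 to 229 CPM in the tiers of the Prm2-rich group. Sdc3, which it overlaps on the opposite strand, stood at 1.13, 1.01 and 29.4 CPM. The use of strand in counting is not stated, so reads of this pair cannot be told apart. 1700021J08Rik (chr4:117002166-117003012, minus strand, antisense to Hectd3) had 0, 0 and 88.7 CPM, at least 314-fold higher. In the knockout library it stood at 83.9 CPM in Tnp-rich and 104 CPM in Prm2-rich barcodes.

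Bloc1s6 (chr2:122738503-122749475, plus strand), a subunit gene of a complex for lysosome-related organelles, stood at 1.79, 2.29 and 58.2 CPM. Its share of barcodes with a UMI was 51.0% in Tnp-rich knockout barcodes against 3.37% and 4.09% in wildtype, and 32.7%, 26.3% and 32.5% in the spermatogonium and early spermatocyte list barcodes, where the libraries were alike. 4930515B02Rik stood at 0.377, 0.183 and 44.3 CPM, and Gm41206 at 6.97, 5.504 and 60.4 CPM. Gm4665 (chr9:115180404-115186058, minus strand, antisense to Osbpl10) stood at 79.2, 73.4 and 524 CPM. 4930429P21Rik, Gm28111 and Eif3j2, which shares 93.4% of its end with Eif3j1, completed the 10.

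Both groups of members held called genes. In Tnp-rich barcodes 33 of 5186 genes were higher (0.636%) and 34 lower (0.656%), with 38 and 34 without barcodes carrying other markers. In Prm2-rich barcodes 41 of 3630 were higher (1.13%) and 37 lower (1.02%). With TMM scaling, which moved the median log2 ratio there by -0.13, the Prm2-rich split was 29 and 39, and without barcodes carrying other markers it was 26 and 36. The groups shared 16 higher genes, which is 48.5% of those of the Tnp-rich and 39.0% of those of the Prm2-rich group, and 16 lower genes (47.1% and 43.2%). Many called genes were under 20 CPM in the other group and so were not compared there. Of the Tnp-rich genes, 19 higher and 19 lower ones were compared in both groups, and 84.2% of each were shared. Of the Prm2-rich genes, 37 higher and 29 lower ones were, and 43.2% and 55.2% were shared. No gene was called in opposite directions. The difference between the groups' ratios was not tested. Leaving out wildtype replicate 1 or wildtype replicate 2 gave 56 or 111 higher genes in Tnp-rich and 69 or 84 in Prm2-rich barcodes.

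**Figure D5:**
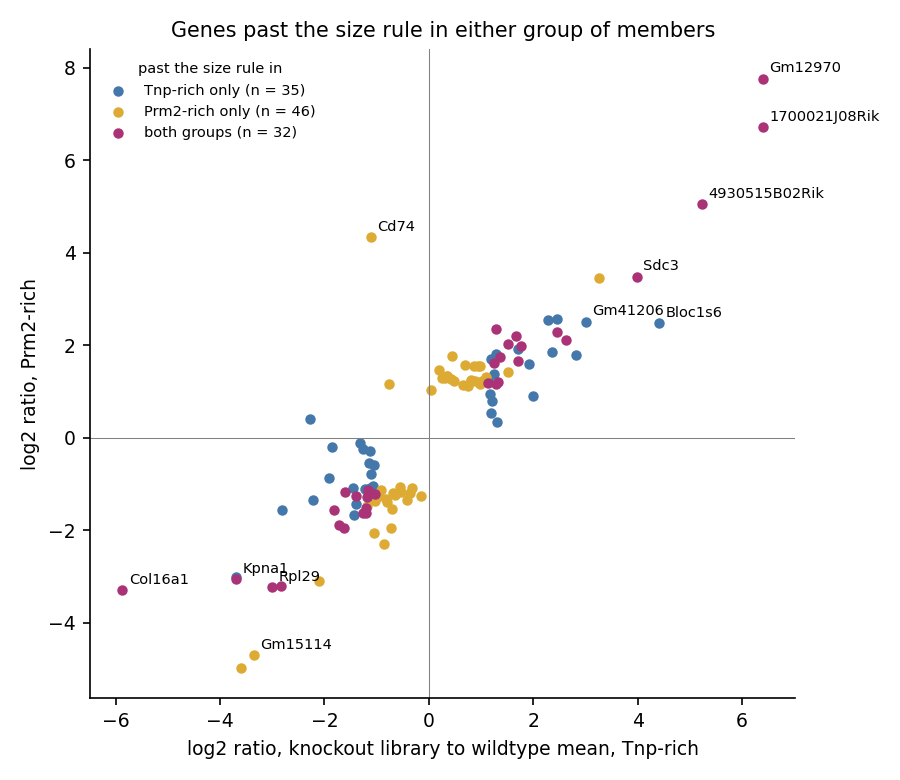
log2 ratio of the knockout library to the wildtype mean (1 CPM added) in Tnp-rich members (x axis) and Prm2-rich members (y axis) for the genes past the size rule in either group, coloured by the group in which they passed. The 32 genes called in both lie at the lower left and the upper right.

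Some genes were called in 1 group, in part because they were under 20 CPM in the other. In Prm2-rich barcodes Tepp, a testis and prostate gene, stood at 575 and 637 CPM in wildtype and 156 CPM in the knockout library. Znrf1, a ubiquitin ligase gene, stood at 82.2 and 80.7 CPM and at 18.8 CPM. Both were also lower in Tnp-rich barcodes, Tepp at 445, 449 and 269.8 CPM and Znrf1 at 195, 171 and 87.7 CPM, without passing the rule. The X-linked Gm15097, Gm15114 and Gm15127 have ends that are mostly or entirely shared with their family, and Gm15097 stood at 37.5, 34.7 and 0.166 CPM (1 UMI; interval 0.00420 to 0.925). In Tnp-rich barcodes, where none of the 3 reached 20 CPM, Gm15097 stood at 12.01, 12.7 and 0.112 CPM (2 UMIs). In Tnp-rich barcodes Gm13003, Gm45463, Gm17227 and 1700007H22Rik were lower, at 0.839 to 5.31 CPM in the knockout library, and Ephb1, an ephrin receptor gene, was higher, at 2.65, 2.10 and 22.8 CPM. These 5 were under 20 CPM in Prm2-rich barcodes, where Gm13003 stood at 9.90, 12.3 and 0.498 CPM and Ephb1 at 2.40, 1.97 and 9.96 CPM. Cd74, a macrophage list gene, was called higher in Prm2-rich barcodes on 142 UMIs, of which 97.2% lay in 5 barcodes.

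Summed over members, mitochondrial transcripts were higher in the knockout library. They gave 0.371%, 0.461% and 0.615% of UMIs outside the 4 genes in members, 0.344%, 0.465% and 0.571% in Tnp-rich and 0.369%, 0.391% and 0.589% in Prm2-rich barcodes, and 0.193%, 0.197% and 0.176% in barcodes of 25% or more. Of 12 mitochondrial genes compared, mt-Nd2, a subunit gene of respiratory complex I, was called higher in members (141, 163 and 338 CPM) and in both groups, and mt-Nd1, of the same complex, in Prm2-rich barcodes (116, 139 and 298 CPM). Per barcode, the median mitochondrial share of all UMIs was 0.0839%, 0.108% and 0.161% in Tnp-rich barcodes. In Prm2-rich barcodes it was 0.112%, 0.137% and 0.140%. The knockout library there lay 0.0151 points above the wildtype mean, beside a wildtype spread of 0.0178 points (SD, n = 2). The part of RNA quality in the other calls was not tested.

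Markers of Sertoli cells moved with the knockout library. The summed level of the 9 Sertoli genes (Sox9, Clu, Amhr2, Cldn11, Wt1, Rhox5, Rhox8, Aard and Defb19) was 154.8 and 247 CPM in the wildtype and 579 CPM in the knockout Prm2-rich barcodes, and 255, 205 and 452 CPM in the Tnp-rich ones. No gene of the 9 was under 1 CPM in all libraries. Rhox8, Amhr2 and Defb19 of this list were themselves among the genes called higher, with Defb19 at 83.7, 88.3 and 253 CPM in Prm2-rich barcodes. The part of Sertoli cell RNA in the other calls was not tested. Of members, 14, 11 and 24 carried somatic markers at 1% of their UMIs or more and 6, 13 and 14 carried meiotic markers at 0.5% or more. Leydig genes summed to 2.64, 64.7 and 33.6 CPM in members, peritubular myoid genes to 47.8, 93.0 and 60.7 CPM, macrophage genes to 75.3, 56.5 and 66.1 CPM, and endothelial genes to 11.8, 8.07 and 11.96 CPM. In Prm2-rich barcodes C1qb alone gave 124, 106 and 116 CPM of a macrophage sum of 159, 107 and 164 CPM. Haemoglobin genes Hba-a1, Hba-a2, Hbb-bs and Hbb-bt were under 1 CPM.

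The called genes were unevenly placed in the genome. Of 316 genes compared on chromosome 4, 19 were called in members (6.01%), and of 277 on chromosome 9, 14 were (5.05%), against 29 of 4250 on all other chromosomes (0.682%). In Prm2-rich barcodes 22 of 244 on chromosome 4 (9.02%), 14 of 212 on chromosome 9 (6.60%) and 8 of 76 on the X (10.5%) were called, against 1.32% on all chromosomes but 4 and 9. The lower 3 of the 8 X-linked genes were Gm15097, Gm15114 and Gm15127, and the higher 5 were Etd, Tslrn1, Cited1, 1700018G05Rik and Tsx, at 23.75 to 32.55 CPM in the knockout library. In Tnp-rich barcodes 1 of 127 X-linked genes was called. On chromosome 4, 17 of the 19 lay between 115 and 155 Mb, where 171 genes were compared, and on chromosome 9 all 14 lay between 75 and 125 Mb, where 122 were compared. The windows hold the largest run of called genes with gaps of at most 20 Mb, rounded to 5 Mb, and were so set after seeing the positions. Calls in these windows went both ways, with 12 higher and 5 lower on chromosome 4 and 8 higher and 6 lower on chromosome 9. Col16a1, Gm12970 and 1700021J08Rik lie in the first window and Rpl29 and Gm4665 in the second. Col16a1 and Gm12970 start 764 kb apart. Tex10 lies on chromosome 4 outside the window (chr4:48430858-48473459), 81.6 Mb from Col16a1. The total share of UMIs from chromosome 4 was 6.88%, 6.92% and 6.95% in members. All libraries carry the same strain label, and no comparison of the mice's genomes was made.

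None of the 12 gene lists had a gene past the size rule in members, in Tnp-rich or in Prm2-rich barcodes. They held 160, 161 and 141 distinct genes compared, and of all genes 1.28%, 1.29% and 2.15% were called, which for lists of this size is 2.05, 2.08 and 3.03 genes. The absence of calls was thus near the share of all genes and is not a result about the lists. The median log2 ratio of 22 acrosome genes was -0.13 in members and -0.26 in Tnp-rich barcodes, beside 0.10 and 0.02 for all genes at 5 CPM or more. Acrosome genes in Tnp-rich barcodes ranged from -0.44 (Lyzl6) to 0.35 (Ccdc136). The exchange list had a median of 0.18 in members, core and linker histones 0.38, the manchette list 0.14, the kinase and phosphatase list 0.11, the ubiquitin list 0.11 and the regulators 0.12. The theca list had 0.00, the sheath and fibre list -0.05, the energy list -0.07, the Tex10 complex list 0.01 over its 4 measured genes and the Wnt list 0.31 over its 7. The medians over the lists thus ran from -0.13 to 0.38 in members, and the list with the highest, that of the histones, rests on 11 genes.

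The most abundant genes of the lists were near level between libraries. Odf2, an outer dense fibre gene, stood at 3069, 3205 and 3462 CPM in Tnp-rich and 7996, 8524 and 8013 CPM in Prm2-rich barcodes. Meig1 stood at 6873, 6174 and 6148 CPM in members, and Ybx3 at 1250.5, 1206 and 1498 CPM. Crem, the activator of many haploid genes, stood at 178, 179 and 154 CPM. Among list genes with larger ratios were Piwil1, which acts on piRNAs, at 11.7, 24.03 and 34.4 CPM in members, and Psme4, a proteasome activator of histone removal, at 91.9, 90.4 and 142 CPM. The wildtype values of Piwil1 lay further from each other than the higher of them lay from the knockout value, while those of Psme4 lay close together. Neither passed the size rule.

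Over the whole series the libraries held 93418341, 96001773 and 147783171 UMIs. Members shared 1 barcode sequence between wildtype replicate 1 and the knockout library and 0 in the other pairs. The wildtype members differed by more than sampling noise (chi-square 6.76 per degree of freedom over 15955 genes) and were treated as separate samples.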

How the data were processed

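Droplet libraries of 3 testis samples were used. The deposited values are raw counts of UMIs for each gene in each barcode; per the file headers they come from Cell Ranger 4.0.0, and the submitters' processing notes also name Seurat 4.0.5 and mm10. Whether counting used the strand is not given in the sources used here. Of 32285 genes, 32158 were matched by identifier to the GENCODE annotation on GRCm38.

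Members were taken by the limits given above. Counts were summed per library and group and divided by the UMIs outside Prm1, Prm2, Tnp1 and Tnp2, which were left out of the genes compared. No test was run and no p-value is given, since the knockout group has 1 library; the size rule and exact intervals stand in its place. Barcodes were thinned to 3000 UMIs for genes and shares of barcodes. Round spermatid-like barcodes and those of other marker lists under 5% were set by the list with the highest mean standardised level. Scrublet (scanpy 1.11.5, Python 3.11.15) marked 5 of 5784 kept knockout barcodes by its automatic threshold, which is too few to rely on, so doublets were kept and the top 8% of scores were left out as an alternative.

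Named genes are Tex10, the proposed markers, in each group the 10 genes per direction with the largest smaller ratio, the 12 leading genes of each comparison between groups, the leading genes along the bins and tiers, and the 3 most abundant genes of each of the 12 lists; further list genes and genes called in 1 group were chosen after their values were seen. The 12 lists cover histone to protamine exchange, histones, acrosome, sheaths and fibres, manchette, perinuclear theca, kinases and phosphatases, energy metabolism, the ubiquitin system, regulators, the Tex10 complex and the Wnt pathway. Members and lists were chosen with earlier results of these data known. The groups within the members, and the alternatives for them, were chosen after seeing the data.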

Additional observations from a re-analysis of the deposited data

How the results depend on the processing

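Of 180 alternatives to 15 main results, 139 kept the direction and stayed near the reported value. Single genes gave 989 alternatives for 69 pairs of gene and group, which include Tex10, Cstl1 and H2al3, called in no group. In 957 the call, or its absence, stayed as reported, in 32 a call was lost, and 0 calls changed sign. The 1.5-fold limit and the lack of a CPM minimum only loosen the rule and cannot lose a call. Leaving out a wildtype library drops its fold condition and the wildtype ratio condition. A call can then be lost only where the gene falls under 20 CPM. The called genes had the largest ratios in the same data, so these counts do not measure how well other calls hold. The difference in member share between the knockout library and the wildtype mean (4.37 points) reversed to -2.43 with at least 1000 UMIs. It was 8.55 with at least 5000 UMIs, 1.83 for a range of 10% to under 25%, 2.70 without the top 8% of Scrublet scores and 11.47 as a share of barcodes of at least 5%. Why it moved was not tested.

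With no CPM minimum, which admits many more genes, 139 genes were higher in knockout members and 72 lower, with 128 and 95 in Tnp-rich and 358 and 93 in Prm2-rich barcodes. At 1.5-fold the counts were 108 and 65, 89 and 108, and 111 and 62. With 5 CPM added, 21 genes were lower in Tnp-rich and 24 in Prm2-rich barcodes. With 4 bins given equal weight the Prm2-rich counts were 93 and 24, and without barcodes carrying markers of other cell types 26 were higher there. Without wildtype replicate 1 or wildtype replicate 2, 63 to 91 genes were higher in members, 56 to 111 in Tnp-rich and 69 to 84 in Prm2-rich barcodes. The larger count of each pair came without wildtype replicate 2, and the condition on the wildtype ratio is void with 1 wildtype library.

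List genes were called in few alternatives. Without each wildtype library in turn, 0 to 1 was called in members (Piwil1) and 0 to 3 in Tnp-rich barcodes (Piwil1, Slc2a3 and Psma8). At 1.5-fold 1 was called in members (Psme4) and 1 in Prm2-rich barcodes (Tmem190), and with no CPM minimum 1 in Prm2-rich barcodes (Las1l). The lower Prm1 part in Tnp-rich barcodes, -3.89 points, was -4.23 from pooled UMIs and -3.06 with 4 bins given equal weight. Genes highest in members numbered 17 by CPM of all UMIs, 131 with no CPM minimum, 71 at 1.5-fold and 38 to 55 without each library in turn. Within 5% to under 15%, the count of genes higher in Tnp-rich than in Prm2-rich barcodes was 1267, against 2047 as reported, and 617 genes were higher in Prm2-rich barcodes at 1.5-fold.

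No paired analysis was possible because the knockout group has 1 library and no result comes from a test. Gm15097, 4930429P21Rik, Gm17227, Cd74 and Sdc3 lost their call in 3 or more alternatives each, and the part of depth in this was not tested. Cells of 1 library share its mouse or pool, its dissociation and its free RNA, and the UMI limit was set at 3000 in libraries whose deposited barcodes reach lower totals.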
